A study of Danio rerio with 6 samples.

Results

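Translation initiation factors were examined in whole zebrafish embryos carrying a deletion in rbm24a and in wild-type embryos. The 64 genes were taken by name, as every gene whose symbol begins with eif and a digit, from a table of 31624 genes, and this rule uses no measured value. They span eif1 to eif6 and include the kinases of eIF2 (eif2ak genes) and the eIF4E-binding proteins (eif4ebp genes). The gene listed in capitals as EIF1B, and one listed as EIF3J (1 of many), did not match the rule and were not counted. The study held 3 wild-type and 3 mutant libraries, each of whole embryos of the AB strain at 33 hours post fertilization (hpf). The mutants carried an 8 bp deletion in rbm24a made with TALENs, nucleases designed to cut 1 site, and the labels assign a different exon to this deletion in each mutant library. The sources used here give no clutch, maternal genotype or number of embryos per library.

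Initiation brings the small ribosomal subunit, loaded with initiator tRNA, to the capped end of an mRNA and moves it to the start codon. The eIF4F complex binds the cap through eIF4E, which is held on the scaffold eIF4G together with the helicase eIF4A. The eIF4E-binding proteins (4E-BPs) compete with eIF4G for eIF4E and are released from it when the kinase mTOR phosphorylates them. The eIF3 complex bridges the small subunit and eIF4G, eIF2 delivers the initiator tRNA, and eIF2B recharges eIF2 with GTP. Rbm24 proteins bind RNA and act on splicing, stability and translation of their targets, and the mammalian protein has been described to bind eIF4E on p53 mRNA. The title of the series names translational control of lens crystallins as its subject.

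Reads counted in genes ranged from 13242789 to 16043155 per library, and initiation factors took between 1.36% and 1.51% of them. Levels are given in FPKM, the authors' counts scaled to exon length and to the library's counted reads, so FPKM can be compared between genes. Log2 changes are mutant minus wild-type and come from a fit of the counts of all genes with its own (TMM) scaling. The labels call the samples independent without naming clutches, so p-values measure the spread between these samples, which may be technical. Mutant replicate 2 stood apart: its counts differed from those of the other mutants by a chi-square per gene of 18.2 and 20.1, against 3.31 between those. The mutated gene was read in every library, with 204, 247 and 211 reads in wild-type embryos and 288, 514 and 366 in mutants (4.49 to 5.52 against 6.27 to 11.3 FPKM), which does not check an 8 bp deletion. With edgeR, rbm24a was higher in mutants, at a log2 change of 0.77 (SE 0.16, adjusted p = 0.00571). Without mutant replicate 2 this was 0.56 (adjusted p = 0.00122). Of 26 markers of lens, muscle, heart, blood, nerve, skin, myeloid cells and yolk, 0 were at 0 in all libraries, 5 were higher and 7 lower in mutants. In the same test 6.71% of all genes were higher and 7.48% lower. The summed lens markers lay between 147 and 178 FPKM in wild-type embryos and between 70.5 and 77.6 in mutants. The summed skeletal muscle markers lay between 3825 and 4593 FPKM in wild-type embryos and between 5212 and 5264 in mutants, although only myhz1.1 of the 5 passed the test and mylpfa, the largest part of the sum, overlapped. Red cell markers summed to 5432 to 5769 against 6902 to 8252 FPKM, and those of yolk layer and liver to 3788 to 4444 against 2315 to 3024 FPKM. Among them hbae3 (red cells) and apoa4b.1 (yolk layer and liver) overlapped between groups and did not pass. Heart markers summed to 74.7 to 83.3 against 57.0 to 69.0 FPKM, and myeloid markers to 116 to 132 against 172 to 175 FPKM. Of the heart markers only vmhc passed. Myl7, the largest part of the heart sum, did not pass, and nppa overlapped between groups. Nerve markers summed to 132 to 147 against 117 to 159 FPKM, and skin markers to 4967 to 5373 against 5320 to 5801 FPKM. These sums overlapped between groups, and 0 of the nerve and skin markers passed. In bulk embryos a change in the number of cells of a type and a change of RNA per cell cannot be told apart, and the part of these marker differences in the results was not tested.

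Of the tested initiation factors, 52 did not pass the test between mutants and wild-type embryos. Of the 64 genes, 61 had a mean of at least 0.5 FPKM and were tested; eif2ak2, eif3bb and eif4e1b fell below it. With edgeR's quasi-likelihood test, adjusted over 16489 genes by Benjamini-Hochberg, 5 were higher and 4 lower at an adjusted p under 0.05. These 9 genes are 14.8% of the tested initiation factors, against 14.2% called among all genes tested, 6.71% higher and 7.48% lower. The share of initiation factors called was thus near that of the transcriptome. Their median log2 change was 0.04, beside 0.00 over all genes. With limma on log2(FPKM + 1) it was -0.02, beside -0.04 over all genes. The groups did not overlap for 22 of the 61 genes, or 36.1%, against 30.7% of all genes. Of them 9 were higher and 13 lower in mutants, against 13.0% and 17.7% of all genes. The higher genes were eif4ebp3l, eif4ebp1, eif4e2, eif3hb and eif3c. The lower genes were eif3eb, eif3ja, eif3k and eif4eb. Without mutant replicate 2, 22 were higher and 5 lower, against 14.5% and 14.8% of all genes. The range without each of the other 5 libraries was 1 to 4 higher and 2 to 4 lower. In those 5 fits 1367 to 1648 of the 16489 genes passed, against 2341 with all libraries, so calls fell among all genes too.

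**Figure D1:**
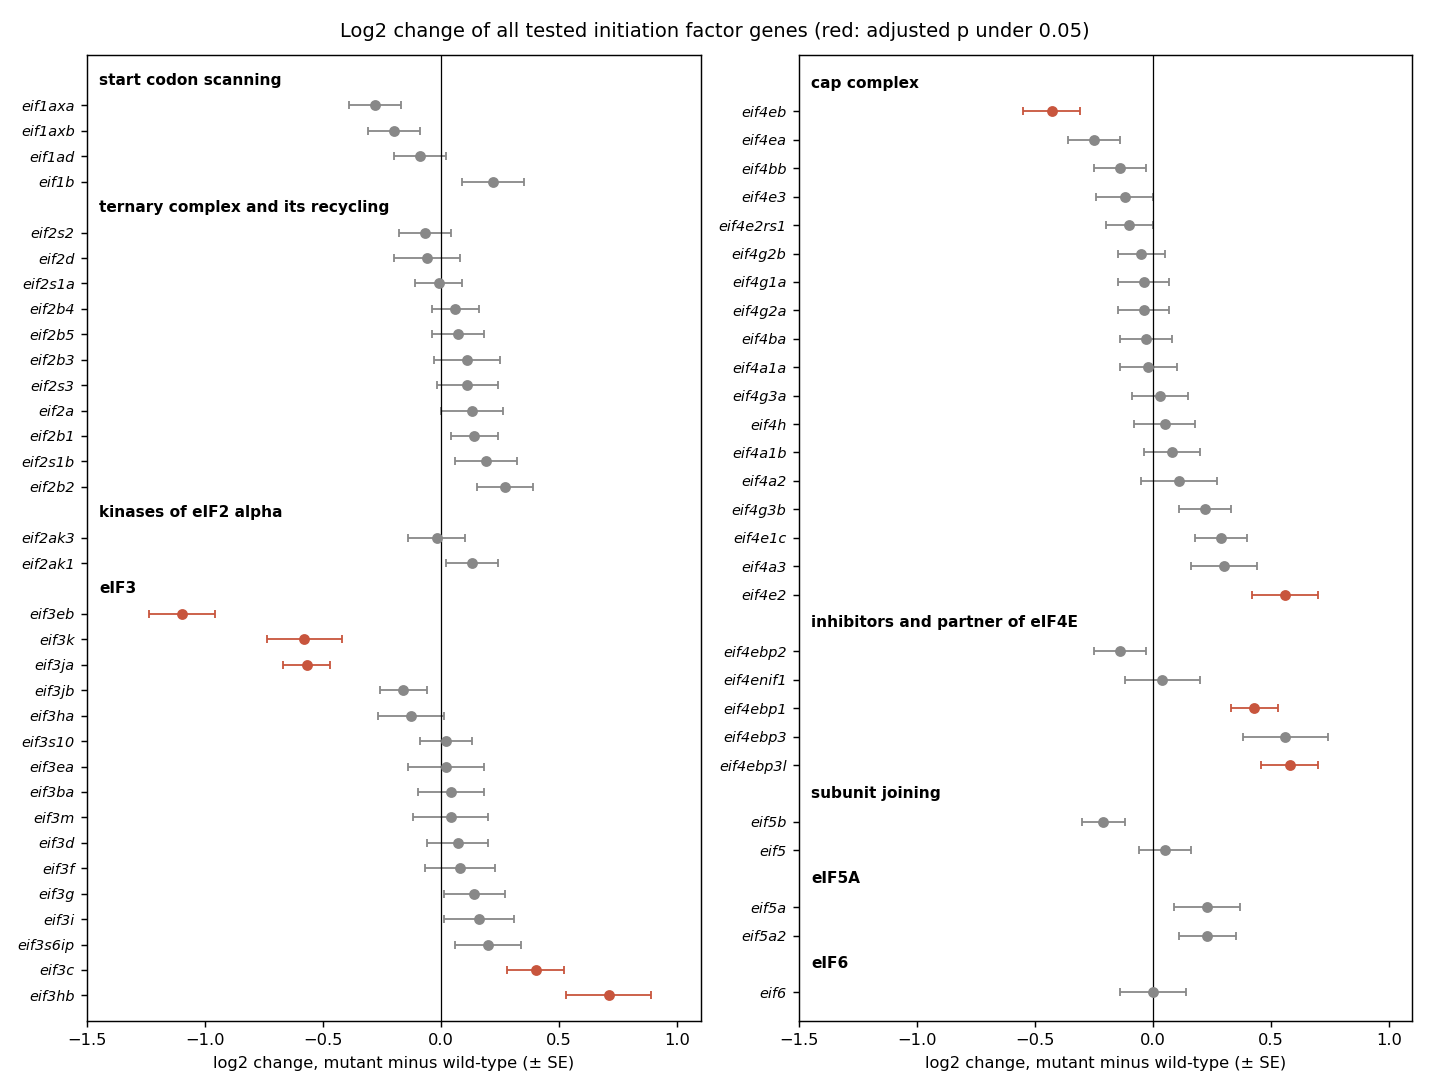
Log2 change of each of the 61 tested initiation factors, mutant minus wild-type, with its standard error as a bar, grouped by role. The 9 genes past the threshold are in red, and the changes run from -1.10 for eif3eb to 0.71 for eif3hb, with most genes near 0.

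Of the 4 genes for 4E-BPs, the inhibitors that sequester eIF4E, 2 were higher in the mutants. The same fit called 6.71% of all genes higher and 7.48% lower. Whether the 4E-BP share differs from that background was not tested. Eif4ebp3l was at 50.5, 49.1 and 49.8 FPKM in wild-type replicates 1 to 3 and 79.1, 66.1 and 69.2 FPKM in mutant replicates 1 to 3. All mutants lay above all wild-type libraries, and the log2 change was 0.58 (SE 0.12, adjusted p = 0.00623). Eif4ebp1, the founding member of the family in mammals, was at 54.95, 52.5 and 52.2 FPKM against 68.2, 74.4 and 64.5 FPKM. The groups again did not overlap, and the log2 change was 0.43 (SE 0.10, adjusted p = 0.00976). The call on eif4ebp3l held in all 14 alternative fits (highest adjusted p = 0.0394). That on eif4ebp1 was lost without wild-type replicate 2 (adjusted p = 0.0593) or 3 (adjusted p = 0.0624).

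The remaining 4E-BP genes did not pass with edgeR on all libraries. Eif4ebp3, the least abundant, had 5.83, 4.44 and 5.49 FPKM in wild-type embryos and 8.05, 6.91 and 7.40 FPKM in mutants, with every mutant above every wild-type library. Its log2 change was 0.56 (SE 0.18, adjusted p = 0.0555), and it passed in 7 of the 14 alternative fits. Among these were the fits without mutant replicate 2 (0.68, adjusted p = 0.00406), with the replicate number as a block (adjusted p = 0.00966), with the length trend removed (0.0346) and with limma on log2(FPKM + 1) (0.0493). With another library left out the adjusted p lay between 0.0804 and 0.202, and with DESeq2 it was 0.0613. Eif4ebp2, the most abundant, had 81.4, 85.6 and 77.2 FPKM against 60.8, 91.03 and 63.8 FPKM. Mutant replicates 1 and 3 lay below the wild-type libraries and mutant replicate 2 above them. Its log2 change was -0.14 (SE 0.11, adjusted p = 0.481), and -0.26 (adjusted p = 0.0139) without that library. The 4 genes together summed to 193, 192 and 185 FPKM in wild-type embryos and 216, 238 and 205 FPKM in mutants. Eif4enif1, which encodes the eIF4E transporter that carries eIF4E into the nucleus, was at 7.57 ± 0.760 in wild-type embryos and 7.44 ± 1.25 FPKM in mutants (mean ± SD, n = 3 per group).

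Genes for cap-binding proteins moved in opposite directions. Eif4e2 encodes 4EHP, a cap-binding protein that does not bind eIF4G and acts as a translational repressor in mammals and flies. It was at 11.96, 9.31 and 8.91 FPKM in wild-type embryos and 13.8, 15.7 and 13.4 FPKM in mutants, with no overlap, a log2 change of 0.56 (SE 0.14, adjusted p = 0.0175). The call was lost without wild-type replicate 2 (adjusted p = 0.0850), wild-type replicate 3 (adjusted p = 0.104) or mutant replicate 1 (adjusted p = 0.0505). Eif4eb, one of the copies of canonical eIF4E, was lower, at 5.86, 6.53 and 6.63 FPKM against 4.82, 4.70 and 4.08 FPKM, again with no overlap. Its log2 change of -0.43 (SE 0.12, adjusted p = 0.0324) passed in the fit of all libraries. The call was lost without wild-type replicate 1 (adjusted p = 0.0799), 2 (0.0867) or 3 (0.138) or mutant replicate 3 (0.133). It was also lost with the trend of counts with transcript length removed (adjusted p = 0.0571) and with limma on log2(FPKM + 1) (0.0503).

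The other eIF4E genes did not pass with edgeR on all libraries. Eif4ea, the sister copy of eif4eb, had 25.4, 23.2 and 22.8 FPKM in wild-type embryos and 18.8, 20.3 and 18.8 FPKM in mutants, below the wild-type range in every mutant, with a log2 change of -0.25 (SE 0.11, adjusted p = 0.145). It passed with limma on log2(FPKM + 1) (adjusted p = 0.0431) and on log2(FPKM + 0.1) (0.0453). Eif4e1c, a further eIF4E gene found in fish, had 44.1, 41.96 and 52.9 FPKM against 52.7, 59.4 and 52.6 FPKM, and its ranges overlapped at a log2 change of 0.29 (SE 0.11, adjusted p = 0.0965). It passed without mutant replicate 2 (adjusted p = 0.0162) and with the replicate number as a block (0.0365). The 3 genes eif4ea, eif4eb and eif4e1c summed to 75.3, 71.7 and 82.3 FPKM in wild-type embryos and 76.2, 84.4 and 75.5 FPKM in mutants, which overlap. Eif4e1c was the largest part of this sum in every library, while eif4ea and eif4eb each lay lower in every mutant. Summed 4E-BP transcripts per summed transcript of these 3 genes came to 2.56, 2.67 and 2.24 in wild-type embryos and 2.84, 2.83 and 2.71 in mutants. Every mutant ratio lay above every wild-type ratio, but the gap from 2.67 to 2.71 was small beside the wild-type spread. Among all single genes tested, 30.7% did not overlap in level, and the share for such ratios was not tested. Eif4e2rs1, a relative of eif4e2, changed by -0.10 (SE 0.10, adjusted p = 0.612) and eif4e3, a more distant cap-binding protein, by -0.12 (SE 0.12, adjusted p = 0.589) on the log2 scale. Eif4e1b, a further eIF4E gene, had 4, 1 and 0 reads in wild-type embryos and 2, 0 and 0 in mutants.

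**Figure D2:**
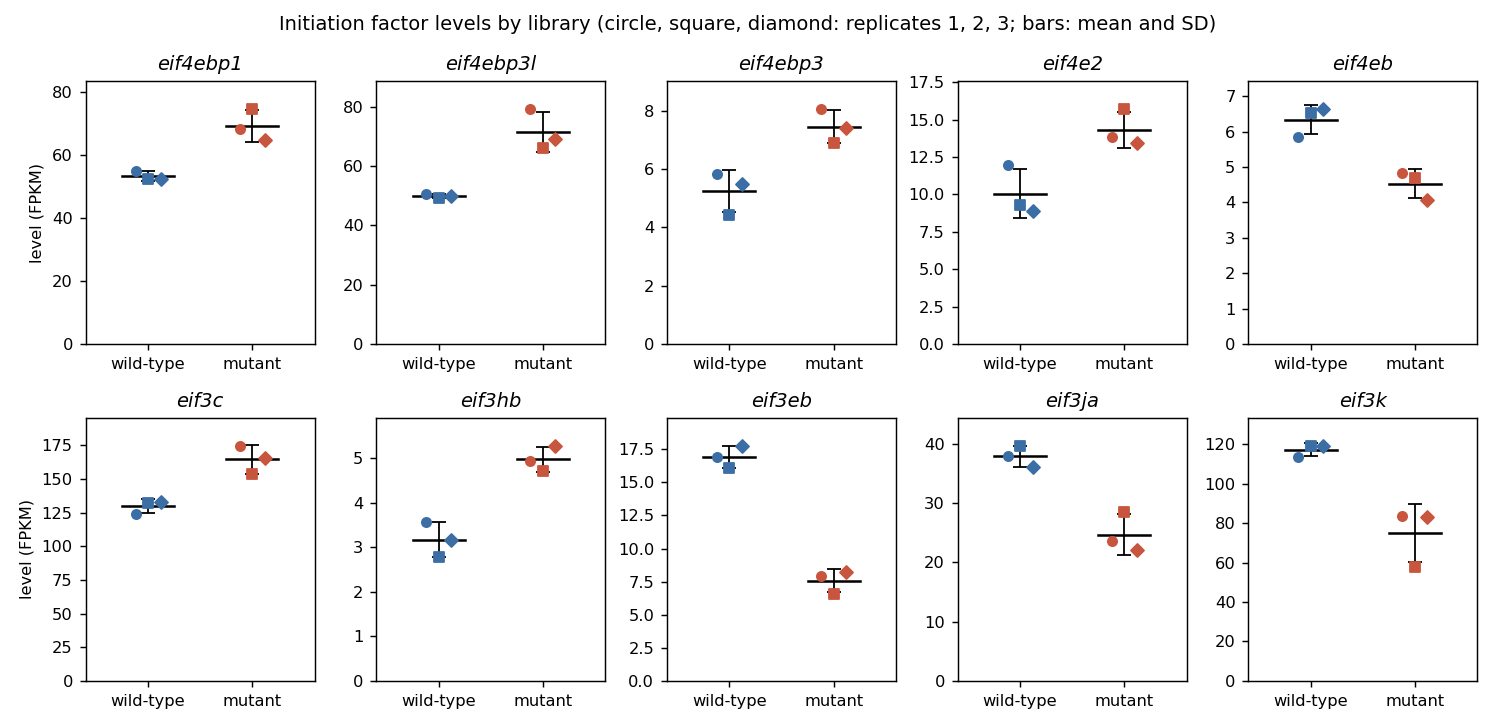
Level in FPKM of the 9 initiation factors past the threshold and of eif4ebp3, by library, with 3 wild-type and 3 mutant points per gene and the mean and SD as bars; each axis starts at 0. In every panel the mutant points lie all above or all below the wild-type points.

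The eIF3 complex, the scaffold of the 43S preinitiation complex, had 16 tested genes, of which 2 were higher and 3 lower. For comparison, the same fit called 14.2% of the transcriptome, with 6.71% rising and 7.48% falling in mutants. Whether the eIF3 share differs from that background was not tested. Eif3eb, a copy of the gene for the subunit eIF3e, showed the largest change of all initiation factors. It was at 16.9, 16.1 and 17.8 FPKM in wild-type embryos and 7.94, 6.58 and 8.23 FPKM in mutants; the groups lay far apart. The log2 change was -1.10 (SE 0.14, adjusted p = 0.000198), a 2.14-fold lower level, and it passed in all 14 alternative fits. It is the only initiation factor among the 743 genes of the authors' deposited table, which gives it a log2 change of -1.03 (adjusted p = 4.995e-12). With DESeq2 here, 2262 of all genes and 9 initiation factors passed at an adjusted p under 0.05. The cutoff of the deposited table may be unlike the one used here, so absence from it is not read as a failed test. Eif3ea, the sister copy of eif3eb, was at 542, 492 and 482 FPKM against 536, 405 and 534 FPKM, with overlapping ranges and a log2 change of 0.02 (SE 0.16, adjusted p = 0.945).

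Subunit eIF3j binds eIF3 loosely and sits near the mRNA entry channel. Eif3ja was at 37.98, 39.6 and 36.1 FPKM in wild-type embryos and 23.5, 28.5 and 22.04 FPKM in mutants, with no overlap, and its log2 change of -0.57 (SE 0.10, adjusted p = 0.00162) passed in all 14 alternative fits. Its copy eif3jb had 21.2, 22.4 and 22.4 FPKM against 17.5, 19.8 and 19.7 FPKM, every mutant below every wild-type library, with a log2 change of -0.16 (SE 0.10, adjusted p = 0.362). Eif3k, which encodes a small subunit outside the core, was at 113, 119 and 119 FPKM in wild-type embryos and 83.5, 57.8 and 82.95 FPKM in mutants. Mutant replicate 2 was the lowest, and the log2 change was -0.58 (SE 0.16, adjusted p = 0.0282), or -0.37 (adjusted p = 0.00138) without that library. The eif3k call was lost without wild-type replicate 1 (adjusted p = 0.0978), 2 (0.0777) or 3 (0.103).

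Eif3c, a core subunit that contacts eIF1 and eIF5, was higher, at 124, 132 and 133 FPKM in wild-type embryos and 175, 153 and 166 FPKM in mutants. The groups did not overlap, and the log2 change was 0.40 (SE 0.12, adjusted p = 0.0466). The call stood near the threshold, and leaving out any library other than mutant replicate 2 lost it. The adjusted p was 0.149, 0.153 and 0.140 without wild-type replicates 1, 2 and 3, 0.164 and 0.135 without mutant replicates 1 and 3, and 0.0549 with the length trend removed. Without mutant replicate 2 the change was 0.51 (adjusted p = 4.42e-05). Eif3hb, a scarce copy of the gene for subunit eIF3h, was at 3.58, 2.78 and 3.16 FPKM against 4.95, 4.72 and 5.28 FPKM, from 82 to 182 reads per library. Its log2 change was 0.71 (SE 0.18, adjusted p = 0.0184), the largest rise among initiation factors. That call was lost without wild-type replicate 2 (adjusted p = 0.0804) or 3 (0.0724) or mutant replicate 1 (0.0602) or 3 (0.0830).

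The abundant copy eif3ha, whose loss in zebrafish has been linked to poorer polysome loading of lens crystallin mRNAs, was at 245, 218 and 225 FPKM in wild-type embryos and 209.8, 176 and 217 FPKM in mutants. All 3 mutants lay below the wild-type range, at a log2 change of -0.13 (SE 0.14, adjusted p = 0.617) that did not pass. The other 8 tested eIF3 genes had log2 changes between 0.02 (eif3s10, the largest subunit) and 0.20 (eif3s6ip, the subunit eIF3l). Summed over the complex, eIF3 transcripts came to 3400, 3161 and 3211 FPKM in wild-type embryos and 3401, 2792 and 3468 FPKM in mutants. Mutant replicate 2 had the lowest level of the mutants for 13 of the 16 tested eIF3 genes. It was the lowest for 32 of the 61 tested initiation factors and for 3635 of all 16489 genes tested.

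Tested genes with symbols in eif1 or eif2 numbered 17: those for eIF1, eIF1A, eIF2, eIF2B and the eIF2 kinases, and also eif1ad, eif2a and eif2d. Of these, 0 passed with edgeR, against 14.2% of all genes, and 0 with DESeq2, with 2 at an unadjusted p under 0.05 in each. With limma on log2(FPKM + 1), 2 passed, eif1axa and eif1axb, and eif1axa also passed with edgeR among genes of at least 5 FPKM (adjusted p = 0.0445). Without mutant replicate 2, eif1b, eif2a, eif2b2, eif2b3, eif2s1b and eif2s3 passed with edgeR, beside 29.3% of all genes. Eif1axa and eif1axb encode eIF1A, which with eIF1 keeps the scanning complex open. Eif1axa was at 45.2, 48.5 and 45.05 FPKM in wild-type embryos and 38.1, 36.2 and 35.5 FPKM in mutants, and eif1axb at 133, 131 and 140.4 against 117, 112 and 110.1 FPKM. Both were below the wild-type range in all mutants, with log2 changes of -0.28 (SE 0.11, adjusted p = 0.111) and -0.20 (SE 0.11, adjusted p = 0.275). Eif1b, a gene for eIF1, had 324, 319.7 and 324 FPKM against 371, 331 and 380.0 FPKM, above the wild-type range in every mutant, with a log2 change of 0.22 (SE 0.13, adjusted p = 0.297). EIF1B, outside the rule, was at 279 ± 14.1 FPKM in wild-type embryos and 222 ± 21.9 FPKM in mutants (mean ± SD, n = 3 per group).

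Eif2s2 (beta subunit) was at 269 ± 11.8 in wild-type embryos and 247 ± 12.1 FPKM in mutants (mean ± SD, n = 3 per group), and eif2s3 (gamma subunit) was at 243 ± 5.17 in wild-type embryos and 252 ± 18.2 FPKM in mutants (mean ± SD, n = 3 per group). Eif2s1b and eif2s1a, copies of the gene for the alpha subunit that the stress kinases phosphorylate, changed by 0.19 (SE 0.13, adjusted p = 0.391) and -0.01 (SE 0.10, adjusted p = 0.967) on the log2 scale. Of the 5 eIF2B genes the largest difference was in eif2b2, at 37.8, 38.1 and 37.1 FPKM against 45.2, 40.3 and 45.2 FPKM, a log2 change of 0.27 (SE 0.12, adjusted p = 0.155), which was 0.39 (adjusted p = 0.00154) without mutant replicate 2. Among the kinases, eif2ak1 (HRI, which senses heme) was at 8.67 ± 0.296 in wild-type embryos and 9.17 ± 0.946 FPKM in mutants (mean ± SD, n = 3 per group), and eif2ak3 (PERK, which senses stress in the endoplasmic reticulum) was at 5.36 ± 0.561 in wild-type embryos and 5.12 ± 0.6897 FPKM in mutants (mean ± SD, n = 3 per group). Eif2ak2 (PKR, which senses double-stranded RNA) had 1, 3 and 2 reads in wild-type embryos and 0, 3 and 6 reads in mutants, too few reads for a difference to be detectable.

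Of 12 tested genes for the helicases, scaffolds and cofactors of the cap complex, 0 passed with edgeR, DESeq2 or limma, with 0, 1 and 1 at an unadjusted p under 0.05. Over all genes edgeR called 14.2%. Without mutant replicate 2, eif4a2, eif4a3, eif4g3b and eif4h passed with edgeR, beside 29.3% of all genes. Eif4a1b, the most abundant gene for the helicase eIF4A, was at 226 ± 4.66 in wild-type embryos and 229 ± 13.8 FPKM in mutants (mean ± SD, n = 3 per group). Its relative eif4a1a was at 133 ± 5.38 in wild-type embryos and 126 ± 10.9 FPKM in mutants (mean ± SD, n = 3 per group). Eif4a2 changed by 0.11 (SE 0.16, adjusted p = 0.739). Eif4a3, which belongs to the exon junction complex rather than to eIF4F, was at 114, 114 and 115 FPKM in wild-type embryos and 142, 112 and 148 FPKM in mutants. Mutant replicates 1 and 3 lay above the wild-type range and mutant replicate 2 just below it, at a log2 change of 0.30 (SE 0.14, adjusted p = 0.204), or 0.47 (adjusted p = 6.96e-05) without that library. Among the scaffolds, log2 changes were -0.04 for eif4g1a, 0.03 for eif4g3a and 0.22 for eif4g3b. They were -0.04 and -0.05 for eif4g2a and eif4g2b, whose mammalian counterpart DAP5 lacks the eIF4E-binding site. The eIF4A cofactors eif4ba, eif4bb and eif4h changed by -0.03, -0.14 and 0.05.

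Of 5 tested genes for late-acting factors, 0 passed with edgeR, DESeq2 or limma, with 1, 1 and 2 at an unadjusted p under 0.05. Eif5, which triggers GTP hydrolysis on eIF2, was at 103 ± 2.12 in wild-type embryos and 102 ± 4.24 FPKM in mutants (mean ± SD, n = 3 per group). Eif5b, the GTPase that joins the large subunit, had 17.5, 19.2 and 19.4 FPKM in wild-type embryos and 14.2, 17.1 and 15.4 FPKM in mutants, every mutant below every wild-type library, at a log2 change of -0.21 (SE 0.09, adjusted p = 0.156). Eif6, which keeps free large subunits apart, was at 48.8 ± 4.04 in wild-type embryos and 46.6 ± 4.61 FPKM in mutants (mean ± SD, n = 3 per group). Eif5a encodes the hypusine-bearing factor now placed in elongation and termination, and it had the highest mean of all initiation factors, 616 FPKM over the 6 libraries. It was at 611, 566 and 562 FPKM against 689.7, 593 and 671 FPKM, and eif5a2 at 254, 282 and 277 against 310.0, 313 and 294 FPKM, with log2 changes of 0.23 (SE 0.14, adjusted p = 0.347) and 0.23 (SE 0.12, adjusted p = 0.234). After eif5a in mean level over the 6 libraries came eif3f (523 FPKM), eif3ea (498), eif3m (455), eif1b (342) and eif3i (334). Eif3ba (294 FPKM), eif5a2 (288), eif2s2 (258) and eif2s3 (247) completed the 10 most abundant, and 0 of the 10 passed with edgeR (0 at an unadjusted p under 0.05), DESeq2 or limma (1 each). Neighbours in this order, such as eif3f and eif3ea or eif1b and eif3i, overlapped between libraries. Over all genes edgeR called 14.2% with all libraries. Without mutant replicate 2, eif5a, eif1b, eif3i, eif5a2 and eif2s3 of the 10 most abundant passed, beside 29.3% of all genes.

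Several factors are encoded by related gene copies, some of them left from the duplication of the fish genome. The shares of the copies are given for the families where the groups did not overlap. Shares within a family sum to 100% and are not separate observations. Shares are of summed FPKM within each library, so they do not depend on library scaling. Eif3eb made up 3.03, 3.17 and 3.55% of the eif3e transcripts in wild-type embryos and 1.46, 1.601 and 1.52% in mutants. Eif3hb made up 1.44, 1.26 and 1.39% of eif3h transcripts in wild-type embryos and 2.304, 2.61 and 2.37% in mutants. Neither pair overlapped between groups, and both minor copies stayed under 4% of their pair.

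Eif3ja held 64.2, 63.95 and 61.7% of eif3j transcripts in wild-type embryos and 57.4, 59.01 and 52.8% in mutants. Of the summed eif4ea, eif4eb and eif4e1c transcripts, the share of eif4e1c was 58.5, 58.5 and 64.2% in wild-type embryos and 69.1, 70.4 and 69.8% in mutants. That of eif4ea was 33.7, 32.4 and 27.7% in wild-type embryos and 24.6, 24.03 and 24.8% in mutants. Among 4E-BPs, eif4ebp2 gave 42.2, 44.7 and 41.8% of transcripts in wild-type embryos and 28.1, 38.2 and 31.1% in mutants. Groups did not overlap in these shares, which were chosen for that. Among all single genes tested, 30.7% did not overlap in level, and a background for shares was not tested. The shares of eif3eb, eif3hb and eif3ja also rest on levels already called above. The shares of eif1axa, eif2s1a, eif4a2, eif4ba, eif4ebp3 and eif5a2 in their families did overlap. Copies are similar in sequence, and the sources used here do not say how reads that fit both were counted, so single copies carry that uncertainty.

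**Figure D3:**
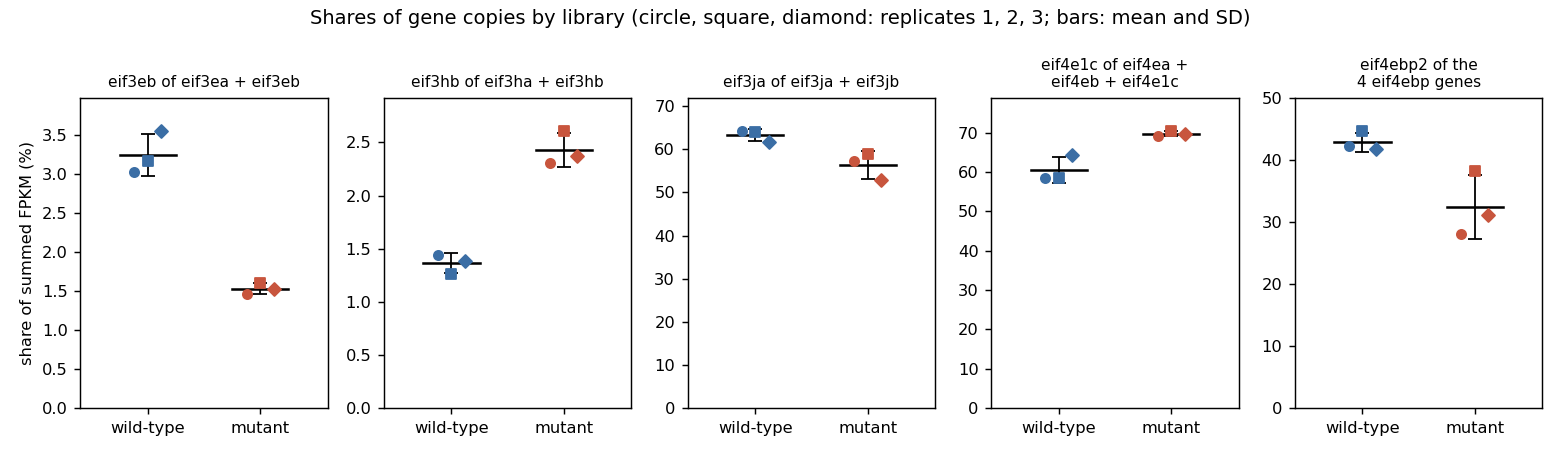
Share of 1 gene copy in the summed FPKM of its family, in percent, for each library, with 3 wild-type and 3 mutant points and the mean and SD as bars; each axis starts at 0. The 5 panels were chosen among shares whose mutant and wild-type points do not overlap.

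Mutant replicate 2 carried lower initiation factor levels than the other mutants. Against the mean of mutant replicates 1 and 3, the median log2 difference in depth-scaled counts was -0.09 over the 61 tested initiation factors and 0.21 over all genes tested. Transcript length moved with this difference, with 0.09 over 6894 genes under 2000 bp of exon and 0.33 over 5514 genes of 3000 bp or more. Among initiation factors the values were -0.17 for 28 genes under 2000 bp and 0.05 for 17 genes of 3000 bp or more, below all genes of that length in both cases. With the length trend removed in every library, 5 initiation factors were higher and 3 lower. The cytosolic ribosomal proteins moved with it too, at -0.34 over 82 genes. Of these, 2 were higher and 2 lower with all libraries, or 4.88% against 14.2% of all genes. Without mutant replicate 2, 58 were higher and 2 lower, or 73.2% against 29.3% of all genes (14.5% higher and 14.8% lower). The part of transcript length in the difference was not tested further.

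Without mutant replicate 2, 27 initiation factors passed, among them all 9 called with all libraries. They are 44.3% of those tested, against 29.3% called among all genes in the same fit, 14.5% higher and 14.8% lower. The median log2 change of initiation factors was then 0.15, beside -0.01 over all genes. Of the additional genes eif4ebp3 had the largest change at 0.68 (adjusted p = 0.00406), followed by eif4a3 at 0.47 (adjusted p = 6.96e-05), eif2b2 at 0.39 (adjusted p = 0.00154) and eif3s6ip at 0.37 (adjusted p = 0.00094). The others were eif1b, eif2s1b, eif2s3, eif2a, eif2b3, eif3g, eif3i, eif4a2, eif4e1c, eif4g3b, eif4h, eif5a and eif5a2, all higher, and eif4ebp2, which was lower. In the other fits run, 1 to 7 initiation factors were higher; eif4ebp3 also passed in 6 of them and eif4e1c with the replicate number as a block (adjusted p = 0.0365).

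**Figure D4:**
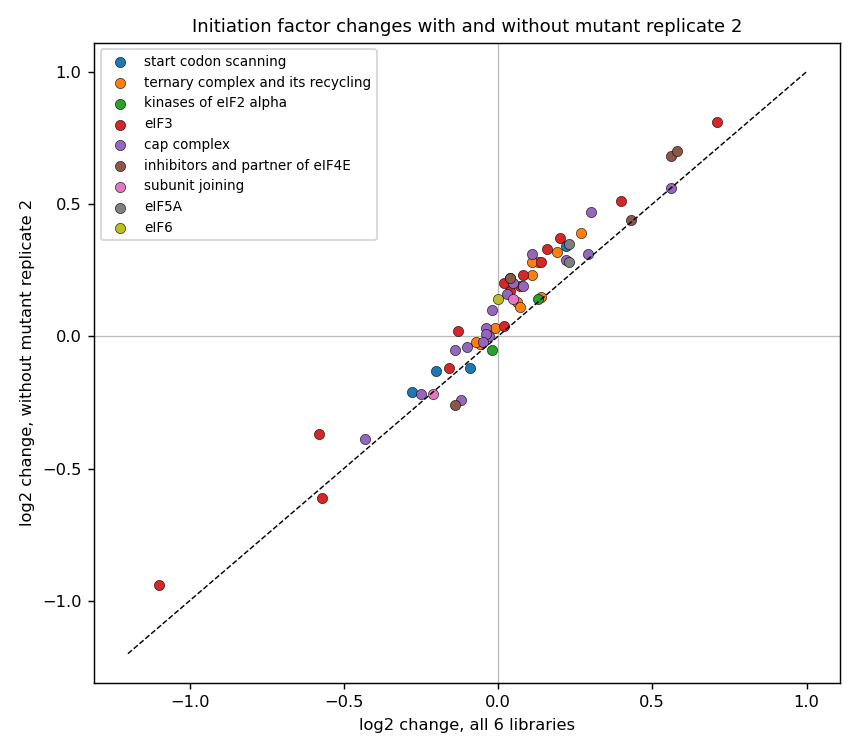
Log2 change of each tested initiation factor with all 6 libraries (horizontal axis) and without mutant replicate 2 (vertical axis), coloured by role, with a dashed line of equal values. Most points lie above the line, and the median rises from 0.04 to 0.15.

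Among other genes of the translation pathway, 44 regulators and partners of initiation were tested. Of these 1 was higher and 3 lower, or 9.09% against 14.2% of all genes, with a median log2 change of 0.04. Without mutant replicate 2 there were 6 higher and 5 lower of the 44, beside 29.3% called among all genes. Mlst8, a subunit of both mTOR complexes, lay between 6.52 and 8.03 FPKM in wild-type embryos and between 3.66 and 4.10 FPKM in mutants, with no overlap. Its log2 change was -0.86 (SE 0.13, adjusted p = 0.000524) and passed in every fit that left out a library. Ppp1r15a, which guides phosphatase 1 to phosphorylated eIF2 alpha, had 13.96, 12.6 and 16.1 FPKM against 8.59, 10.3 and 7.32 FPKM, a log2 change of -0.66 (SE 0.14, adjusted p = 0.00669), lost without wild-type replicate 3 (adjusted p = 0.0522). Ppp1cb, a catalytic subunit of that phosphatase, was lower, with a log2 change of -0.41 (SE 0.09, adjusted p = 0.0112), which was lost without wild-type replicate 1 (adjusted p = 0.0590) or 3 (0.0575). Gcn1, which activates the eIF2 kinase GCN2, was higher, with a log2 change of 0.42 (SE 0.11, adjusted p = 0.021), a call kept without mutant replicate 2 (adjusted p = 6.80e-05) and lost without any other library (adjusted p from 0.0584 to 0.105).

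A list of elongation and termination factors, with genes related by function or name such as eef2k and eef1e1, had 21 tested genes. Of these 1 was higher and 2 lower, or 14.3% against 14.2% of all genes, with a median log2 change of 0.08. Without mutant replicate 2 there were 8 higher and 2 lower, or 47.6% against 29.3% of all genes (14.5% higher and 14.8% lower). Eef2l2, a relative of elongation factor 2, was at 14.6, 14.8 and 13.1 FPKM in wild-type embryos and 19.02, 22.9 and 18.4 FPKM in mutants, a log2 change of 0.55 (SE 0.10, adjusted p = 0.00222) that passed in all 14 alternative fits. Eef2a.1 and eef1e1 were lower, with log2 changes of -0.73 (SE 0.18, adjusted p = 0.0173) and -0.34 (SE 0.10, adjusted p = 0.0318). The call on eef2a.1 was lost without wild-type replicate 1 (adjusted p = 0.0568) or 2 (0.0970) or mutant replicate 1 (0.0527) or 3 (0.0745), and with limma on log2(FPKM + 1) (0.0707). That on eef1e1 was lost without any wild-type library (adjusted p from 0.0815 to 0.127) or mutant replicate 1 (0.118), and with the length trend removed (0.0755). The 3 tested mitochondrial initiation genes, mtif2, mtif3 and mtfmt, had adjusted p from 0.533 to 0.747, and the 82 ribosomal protein genes had 2 higher and 2 lower, or 4.88%.

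Splicing gave a second readout on the same genes. The authors' deposited tables of splicing events hold 29 events in 13 initiation factor genes at a false discovery rate (FDR) under 0.05, 16 with lower and 13 with higher inclusion in mutants. Over all genes the tables hold 3711 such events, 2155 lower and 1556 higher. Among the lower events, 556 over all genes and 2 in initiation factors are at 3' splice sites. That table is held only in part and has 0 higher events, so these totals do not compare the directions. Depth was uneven, and 13 of these events in 8 genes had at least 20 junction reads in every library. In 8 events the inclusion levels of the groups were apart, or 27.6%, against 23.3% of the 3711 events, and 5 events in 3 genes met both conditions. Some events share an exon or reads, as in eif3c, eif4ba and eif4e2, so these counts are of records rather than separate observations. A low deposited FDR required neither depth nor separate groups. In the authors' deposited table an eif4g3b record on 5 to 21 reads per library had FDR = 6.27e-81, although its levels overlapped. The size of an FDR is thus no measure of how well the libraries separate. Wild-type was taken as the group named first in the labels' name of the comparison. Of 31 other genes with at least a 2-fold change and 100 junction reads, 29 changed in junction reads as in counts. Levels carry no replicate number, and positions are on GRCz11.

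Eif3c held the skipped exon with the most reads. In the authors' deposited table a 51 bp exon, at chr12:3908053-3908103 on the minus strand, was skipped in 14, 17 and 22 reads in wild-type embryos and 80, 63 and 49 reads in mutants. It was included in 1275, 1249 and 1264 reads in wild-type embryos and 1755, 1479 and 1917 in mutants. The authors' deposited table gives inclusion levels of 0.985, 0.982 and 0.977 in wild-type embryos and 0.942, 0.946 and 0.967 in mutants, a change of -3.0 percentage points (FDR = 1.82e-213). Versions of this exon of 45 bp and 36 bp, counted against the same skipping reads, changed by -8.6 and -12.6 percentage points in the authors' deposited table. Their levels leave out the inclusion reads of the 51 bp form and so are not shares of all eif3c transcripts. The 36 bp version had 278 to 387 inclusion reads per library. Each of these lengths is a multiple of 3. These records and 2 more on eif3c, which overlapped between groups, share their skipping reads and are not separate observations, and eif3c was also higher as a gene.

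Eif5b showed the clearest switch in level. By the authors' deposited table, a 3' splice site that adds 6 bp to the exon at chr1:45249470-45249541 was used in 11, 12 and 16 reads in wild-type embryos and 0, 1 and 0 in mutants. The shorter exon had 56, 49 and 53 reads against 52, 55 and 37. Levels in the authors' deposited table were 0.159, 0.191 and 0.225 in wild-type embryos and 0.000, 0.017 and 0.000 in mutants, a change of -18.6 percentage points (FDR = 1.41e-119). The table of 3' splice sites is held here only in part, 556 events of 1030 stated, all of them lower in mutants.

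Eif3ea, the abundant copy of eIF3e, had a small shift in the level of an exon recorded as mutually exclusive with another. In the authors' deposited table the exon of 135 bp at chr16:38607736-38607870 had levels of 0.485, 0.483 and 0.494 in wild-type embryos and 0.540, 0.532 and 0.503 in mutants, over 2256 to 3476 reads per library. The change was 3.8 percentage points (FDR = 9.73e-19 in the authors' deposited table), and the groups did not overlap. The other exon of the record is at chr16:38618565-38618674. Whether single transcripts hold only 1 of these exons was not tested. Eif5a2 had 11 to 26 reads per library at a 5' splice site that adds 13 bp, with levels in the authors' deposited table of 0.917, 0.958 and 0.892 in wild-type embryos and 0.805, 0.754 and 0.479 in mutants. A second eif5a2 record rested on at most 5 reads per library.

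The remaining events were shallow or overlapped. In the authors' deposited table an 88 bp exon of eif4h changed by -53.2 percentage points on 2 to 12 reads per library, and a retained intron of eif3i by -33.7 on 2 to 20 reads. Eif4ba had 3 skipped-exon records in the authors' deposited table, from -10.9 to -33.4 percentage points, whose levels overlapped. They repeat a 73 bp exon and in part share skipping reads, so they are not separate observations. Eif4e2 had 8 records at overlapping 5' splice sites of 1 exon in the authors' deposited table, of which only 1 had at least 20 reads in every library. Records in eif4g1a, eif4g3b, eif4a1a, eif4a2 and eif3hb overlapped between groups, with changes from -21.8 to 7.8 percentage points in the authors' deposited table.

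**Figure D5:**
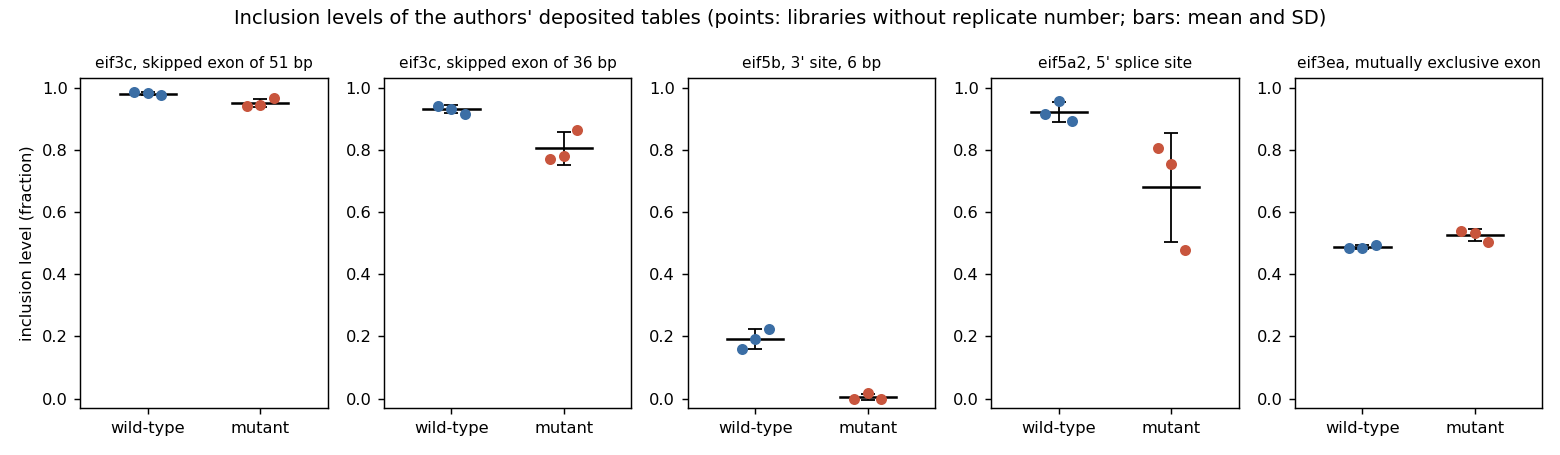
Inclusion level as a fraction from the authors' deposited tables, for 5 records in 4 initiation factor genes, with 3 wild-type and 3 mutant points and the mean and SD as bars. The eif3c panels, of 51 bp and 36 bp, share their skipping reads and are not separate observations. Eif5b falls from levels of 0.159 to 0.225 to at most 0.017, whereas the shifts in eif3c and eif3ea are small beside their level.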

How the data were processed

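Gene expression was measured by RNA sequencing of whole embryos, with a TruSeq RNA kit and paired ends on a HiSeq 2000 per the labels' protocols. For each gene the deposited table gives the authors' raw count and an FPKM value. The deposited FPKM equalled the count scaled to exon length and to the library's counted reads within 0.005. The submitters' processing notes name, without role, HISAT2 2.0.1 and HTSeq 0.6.1, GRCz11, DESeq2, and cutadapt with bcl2fastq 2.17.1.14. The sources used here do not say whether strand was used. In the authors' deposited table of changed genes are log2 changes and adjusted p-values, and their splicing tables hold a score of inclusion difference, an FDR (adjusted p-value) and inclusion levels, with no tool named for them in the sources used here. Merged count cells were parted where they gave back the deposited levels within 0.00051.

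Counts were fitted for the 16489 genes whose mean over the libraries reached 0.5 FPKM, with edgeR 4.0.16 in R 4.3.3. Scaling was by TMM; the two-sided test was quasi-likelihood and p-values were adjusted by Benjamini-Hochberg with a threshold of 0.05. The fit was tested on simulated data. Standard errors come from that fit. Alternatives used DESeq2 1.42.0, limma 3.58.1, other filters, a length trend and leaving out each library. Text names members that passed, those of the eIF4E, eIF4G, eIF4A, 4E-BP and eIF2 kinase families, the 10 most abundant, the 5 largest changes that did not pass, genes with splicing events, rbm24a, and of the other lists the genes that passed; a few others are named for their family or for groups that do not overlap, chosen after their values were seen. The members and lists were chosen with earlier results of these data known. No promoter or protein sequence was used here.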

Additional observations from a re-analysis of the deposited data

How the results depend on the processing

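The count of 5 higher initiation factors was 5 to 7 with other scaling, filters, DESeq2, limma, the length trend removed or the replicate block, 3 with a minimum log2 change of 0.5, and 1 to 22 when each library was left out in turn. The count of 4 lower was 3 to 7 over the same settings, with 7 from limma on log2(FPKM + 0.1), and 2 to 5 with a library left out. The highest count, 22, came without mutant replicate 2, and the cause was not tested. Over all genes, 4828 passed without that library and 1367 to 1648 without any other, against 2341 with all libraries. The 29 splicing events became 16 with a change of at least 0.10, 13 with 20 reads in every library and 8 with levels that do not overlap.

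Some values near 0 changed sign without passing in the fit of all libraries, and the cause was not tested. With the length trend removed they were 0.02 for eif2ak3 and eif4a1a, 0.03 for eif4g1a and 0.01 for eif4g2a. With limma at pseudocounts of 1 and 0.1 they were -0.03 and -0.03 for eif3ba and eif4enif1, -0.05 and -0.05 for eif3ea, -0.04 and -0.04 for eif3m, -0.02 and -0.03 for eif4g3a, and -0.02 and -0.02 for eif4h. Over all genes the median log2 change in these limma fits was -0.04 and -0.06. With each library left out in turn, log2 changes ran from -0.08 to 0.05 for eif2ak3, -0.04 to 0.17 for eif3ba, -0.09 to 0.20 for eif3ea, -0.01 to 0.23 for eif3f, -0.07 to 0.22 for eif3m, -0.11 to 0.10 for eif4a1a, -0.01 to 0.31 for eif4a2, -0.06 to 0.01 for eif4ba, -0.09 to 0.22 for eif4enif1, -0.12 to 0.03 for eif4g1a, -0.09 to 0.01 for eif4g2a, -0.03 to 0.16 for eif4g3a and -0.03 to 0.20 for eif4h. Of the other values of named initiation factors, 494 kept direction and side of the threshold, 24 lost it and 25 gained it.

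Same-numbered libraries deviated together with r = 0.19, 0.32 and 0.05, against -0.31 to 0.16 between libraries of unlike number. The labels give no pairing, and the fit of all libraries did not pair them. Whether same-numbered libraries share a batch was not tested. With the replicate block 7 initiation factors were higher and 4 lower, and 3387 of all genes passed in place of 2341. Wild-type replicates 1 and 2 each correlated best with the mutant library of their own number, and wild-type replicate 3 with mutant replicate 1. Depth limits eif2ak2, eif3bb, eif4e1b and most splicing events.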
